A study of Mus musculus with 16 samples.

Results

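The comparison set colon of mice that had been given dextran sulphate sodium (DSS) and saline, the Control group, against colon of mice kept on water, the Sham group. Groups were taken from the sample titles, which gave 6 Control and 4 Sham mice of 16 mice in the series, with 1 array per mouse. Every mouse carried ApcMin/+, which leaves 1 working copy of Apc, a brake on Wnt signalling, and predisposes to intestinal tumours. Control mice drank 1.5% DSS for 3 days, and Sham mice drank plain water throughout. Colorectal tissue was taken at day 28. The labels differ on what followed DSS in Control: the protocol gives saline into the colorectum over 28 days, whereas the sample descriptions give water for the 25 days after DSS. The labels used here do not give age, sex or whether tissue of several mice was pooled, so p-values measure the spread between samples. For genes, the main test pooled that spread over all 16 arrays, 6 of them from a 5-ASA group.

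DSS is a sulphated polysaccharide that injures the epithelium of the large bowel and lets luminal bacteria reach the tissue beneath. Neutrophils and monocytes enter within days, and after DSS is withdrawn the crypts are rebuilt by division of stem and progenitor cells. Dividing cells first load the MCM helicase onto replication origins, then copy DNA, then switch on the genes of mitosis, and the transcripts of each step are most abundant in cells at that step. In bulk tissue, fewer cells of a type and less RNA per cell cannot be told apart.

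Values below are log2 of the processed spot intensity minus the 75th percentile of the array, so 0 is the 75th percentile, and a difference is Control minus Sham on that scale with its SE. For the tissue label, 8 of 8 colon markers, among them Cdx1, Cdx2, Krt20, Vil1, Car1, Slc26a3 and Muc2, were each well above background on all 10 arrays. Of 20 genes characteristic of other organs, 11 were measured and 6 were well above background on all 10 arrays (Alb, Apoa2, Ttr, Tg, Cela1 and Ins2). The arrays lay on 2 slides in 2 rows. All 4 Sham arrays and Control 1, 2, 4 and 5 were in the first row, and Control 3 and 6 were in the second. Of all spots, 56.8% were well above background on each of the 2 second-row Control arrays, against 64.4 to 65.2% on first-row Control arrays and 59.8 to 64.4% on Sham arrays. List medians are therefore also given over the first row alone (4 Control and 4 Sham) where they bear on a result. Within the first row, Sham held columns 1 and 2 and Control columns 3 and 4, so column and group cannot be told apart. Arrays of the comparison correlated pairwise at r from 0.959 to 0.994.

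No single gene passed the test. In limma's model of all 16 arrays, 0 of 23381 genes differed between Control and Sham at a Benjamini-Hochberg adjusted p under 0.05. A separate model of the 4 Control and 4 Sham first-row arrays, with the spread of those arrays alone, also gave 0. At an unadjusted p under 0.05, 1273 genes (5.44%) were higher in Control and 811 (3.47%) were lower, 8.91% in all. With only the Control and Sham arrays in the model, these counts were 1602 and 823. All 6 Control mice lay above all 4 Sham mice for 617 genes (2.64%) and below them for 157 (0.671%). With the array row in the model, 539 genes (2.31%) were higher and 377 (1.61%) lower at an unadjusted p under 0.05, and again 0 passed after adjustment. All 4 Sham arrays lay in the first row and all 5-ASA arrays in the second, so the row term came from the 6 Control arrays. The difference with the row in the model was therefore that of the first row alone, with a SE from all 16 arrays. Of the 1273 higher genes, 465 kept that p with the row in the model, and all 1273 had the same sign in the first row alone. Of the 811 lower genes, 337 kept it and all 811 had the same sign. The first row holds the same Sham mice and 4 of the 6 Control mice, so these signs are not a separate check. In the first row alone, 1006 genes (4.3%) were higher and 493 (2.11%) lower, 6.41% in all, and 4 Control mice lay above all 4 Sham mice for 864 genes (3.7%). When arrays were scaled on their median in place of the 75th percentile, 726 genes were higher and 851 lower, so the higher share was 46.0%, against 61.1% with the 75th percentile.

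The size of the differences was small for most genes: 190 genes (0.813%) were higher by 1 log2 unit or more and 131 (0.56%) lower by as much, and the median SE of a difference was 0.16. The median difference over all genes was -0.00, and 49.7% of genes had a difference above 0 and 50.3% below it. The number of arrays limits the precision. To describe what lay beneath the calls, 48 gene lists for cell types and pathways were read by their counts and their median difference. The lists and their members were chosen with earlier results of these data known, so list counts are a description and not a test. At an unadjusted p under 0.05, list counts stand beside 5.44% of all genes higher and 3.47% lower. With the row in the model these shares were 2.31% and 1.61%. Of 1045 list entries, 918 were measured, 83 were too dim, 36 had probes only in the outer spot rows and 8 had no probe under their name. Of the 48 medians, 24 were above 0, and they ranged from -1.05 to 0.81. Those above 0.4 were 7, of which 4 were the lists of the cell cycle, and 1 lay below -0.4. The sign of the median was the other way in the first row alone for 3 lists (platelet, adipocyte and mesothelium, and other organ).

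**Figure D1:**
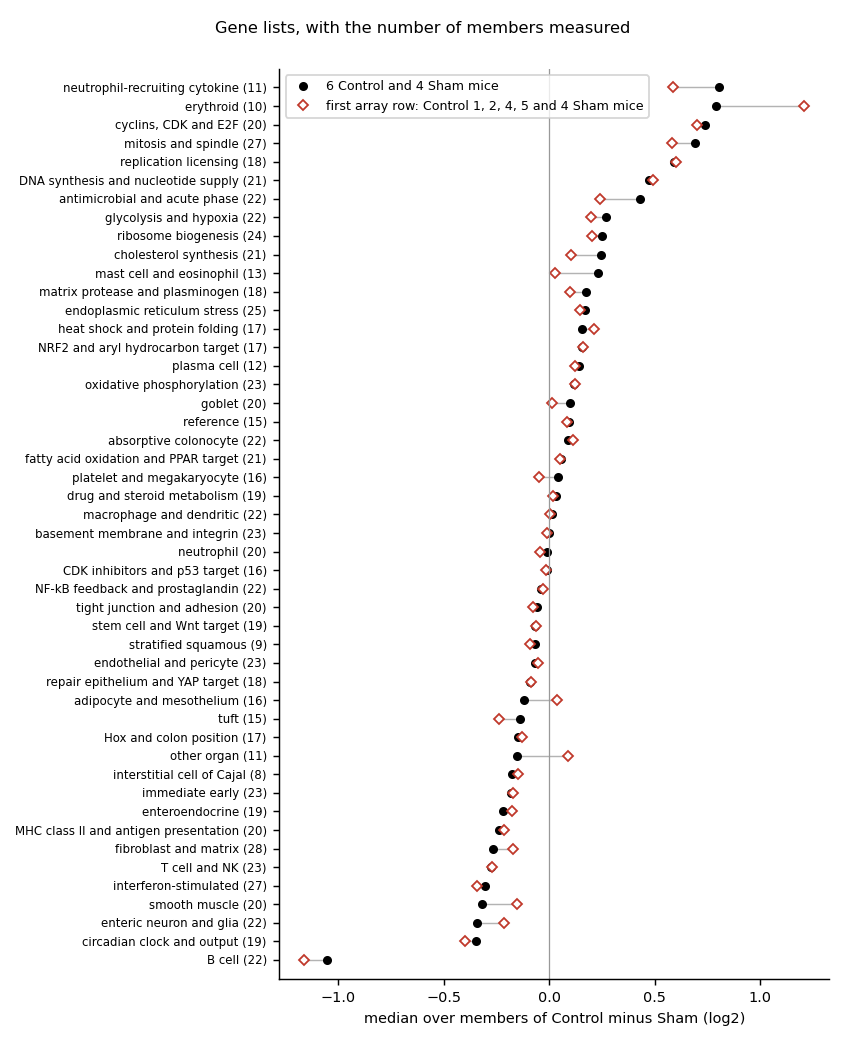
Median over list members of the difference Control minus Sham in log2 (x axis) for 48 gene lists (y axis, with the number of members measured). Black dots use 6 Control and 4 Sham mice, and open diamonds the first array row with 4 Control and 4 Sham mice. Cytokine, erythroid and cell cycle lists are at the top, the B cell list is at the bottom at -1.05, and the erythroid list moves most between rows, 0.79 against 1.21 in the first row.

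Genes of the cell cycle were higher in Control colon as a group. Their lists were also chosen with earlier results of these data known, so the counts that follow are a description. Over the lists for replication licensing, DNA synthesis, cyclins and mitosis, 86 genes were measured, and 85 had a positive difference, from 0.02 to 1.07. At an unadjusted p under 0.05, 52 of the 86 were higher and 0 lower, set against 5.44% of all genes higher. All 6 Control mice were above all 4 Sham mice for 34 of them, set against 2.64% of all genes. With the row in the model 18 of the 86 kept that p, set against 2.31%. In the first row, the 4 Control mice were above all 4 Sham mice for 39 of the 86, set against 3.7%. The count of 52 was 16 without Control 4 and 6, the mice lowest for bowel wall genes, and 40 without Control 1 and Sham 1, the mice lowest for B cell genes. Both pairs were chosen after their levels were seen.

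Replication licensing loads the MCM2-7 helicase onto origins and is under the control of E2F transcription factors. Promoters of 3 licensing genes follow, because their bases hold the E2F motif and the genes lay higher in all 6 Control than in all 4 Sham mice. Promoters of Ube2c and Ect2, which act in mitosis, follow them, because these hold the cell cycle homology region (CHR), the motif through which mitotic genes are held off outside late cell cycle. Each is the 250 bases before the start site, 5′ to 3′ on the strand of the gene, from RefSeq's promoter table of GRCm38.p6. Capitals mark matches on either strand to the E2F motif (TTTCCCGC, TTTCGCGC, TTTGCCGC or TTTGGCGC) in the first 3 promoters, and to the CHR (TTTGAA) in the last 2. The sequences are at chr8:75109259-75109508 (+) for Mcm5, chr1:128359706-128359955 (-) for Mcm6, chr11:98907901-98908150 (+) for Cdc6, chr2:164769679-164769928 (+) for Ube2c and chr3:27153879-27154128 (-) for Ect2.
Mcm5: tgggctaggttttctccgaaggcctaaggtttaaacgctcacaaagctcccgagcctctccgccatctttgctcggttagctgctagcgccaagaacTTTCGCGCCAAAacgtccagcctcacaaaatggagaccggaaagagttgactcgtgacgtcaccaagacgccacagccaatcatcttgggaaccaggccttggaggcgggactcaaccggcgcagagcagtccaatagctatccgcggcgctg
Mcm6: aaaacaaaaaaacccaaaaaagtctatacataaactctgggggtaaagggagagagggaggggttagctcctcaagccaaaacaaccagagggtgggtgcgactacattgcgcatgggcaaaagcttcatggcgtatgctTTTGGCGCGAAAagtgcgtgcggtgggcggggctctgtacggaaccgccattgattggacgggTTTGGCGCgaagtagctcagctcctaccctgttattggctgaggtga
Cdc6: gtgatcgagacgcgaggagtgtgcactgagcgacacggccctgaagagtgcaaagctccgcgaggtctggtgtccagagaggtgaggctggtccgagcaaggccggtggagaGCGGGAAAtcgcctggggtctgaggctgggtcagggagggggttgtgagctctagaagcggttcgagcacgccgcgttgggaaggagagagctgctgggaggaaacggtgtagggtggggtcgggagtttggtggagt
Ube2c: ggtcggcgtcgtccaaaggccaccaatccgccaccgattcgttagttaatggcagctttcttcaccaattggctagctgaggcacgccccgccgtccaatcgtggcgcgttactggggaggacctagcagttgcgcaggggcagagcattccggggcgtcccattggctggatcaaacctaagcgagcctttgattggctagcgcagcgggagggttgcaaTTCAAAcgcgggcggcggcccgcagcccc
Ect2: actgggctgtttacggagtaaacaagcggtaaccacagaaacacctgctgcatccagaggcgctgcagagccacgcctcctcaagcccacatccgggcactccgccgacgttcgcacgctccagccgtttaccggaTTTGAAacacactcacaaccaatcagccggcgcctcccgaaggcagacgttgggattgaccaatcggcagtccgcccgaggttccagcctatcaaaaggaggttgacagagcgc

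Within those bases Mcm5 held 2 overlapping E2F matches on opposite strands, beginning at -153 and -149 relative to the start. Mcm6 held 3, beginning at -110, -106 and -47, the first 2 of them overlapping. Cdc6 held 1, at -138, Ube2c held 1 CHR match at -29, and Ect2 held 1 at -114. Over the whole window of 250 bases before to 50 after the start, 744 of 32851 promoters in the table (2.26%) held the E2F motif and 17.9% the CHR. Of the promoters of licensing genes, 8 of 14 (57.1%) held the E2F motif and 4 (28.6%) the CHR. Of the promoters of mitosis genes, 0 of 25 held the E2F motif and 19 (76.0%) the CHR. DNA synthesis genes had the E2F motif in 7 of 24 promoters (29.2%) and the CHR in 2 (8.33%), and cyclin, CDK and E2F genes had each motif in 5 of 15 (33.3%). A match is a stretch of letters and not a measured binding site.

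Of 19 licensing genes 18 were measured, and 17 of the 18 lay higher in Control mice, their median being 0.59, against -0.00 over all genes. At an unadjusted p under 0.05, 14 of 18 were higher, set against 5.44% of all genes, and 0 lower, and for 11 the 6 Control mice lay above all Sham mice, set against 2.64%. In the first row alone the median was 0.60, and 10 of 18 kept that p with the row in the model. The mean level of the list, set to 0 at the Sham mean, was 0.30, 0.59, 0.80, 0.94, 0.37 and 0.36 in Control 1 to 6, against 0.00, 0.11, -0.14 and 0.03 in Sham 1 to 4. Each Control mouse was above each Sham mouse, and Control 4 and Control 3, on different slides and rows, were highest. Leaving out each mouse in turn gave 7 to 15 genes at that p, with 7 without Sham 3 and 9 without Control 4. Without Control 4 and 6 it was 9 with a median of 0.52.

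**Figure D2:**
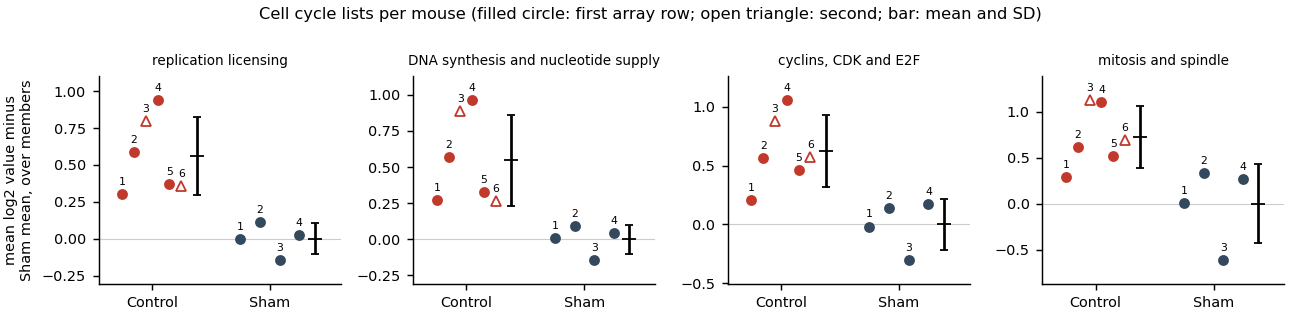
Mean level of 4 cell cycle lists in each mouse (y axis, log2 minus the Sham mean, averaged over list members), with Control left of Sham. Numbers are mice, filled circles the first array row, open triangles the second, and bars the mean and SD. For licensing, DNA synthesis and cyclins each Control mouse is above each Sham mouse, whereas for mitosis Control 1 at 0.29 is below Sham 2 at 0.34.

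Cdc6, which recruits the helicase to origins, had -2.44, -1.96, -1.49, -1.52, -2.23 and -2.45 in Control mice, against -2.88, -2.72, -3.00 and -3.05 in Sham mice. Its difference of 0.90 ± 0.31 (SE) was the largest of the list. Mcm3, a subunit of the helicase, had 2.36, 2.84, 3.09, 3.38, 2.50 and 2.50 in Control mice, against 1.91, 2.18, 1.87 and 1.95 in Sham, a difference of 0.80 ± 0.28. Control 4 was highest, and the lowest Control mouse was still above the highest Sham mouse. Mcm4, another subunit, had 2.28, 2.57, 2.70, 3.11, 2.41 and 2.40 in Control, against 1.80, 2.05, 1.97 and 1.97 in Sham, a difference of 0.63 ± 0.22. The other 4 subunits lay in the same range, with differences of 0.62 for Mcm2, 0.79 for Mcm5, 0.53 for Mcm6 and 0.51 for Mcm7. Mcm10, which helps to activate the helicase, differed by 0.88 ± 0.33, and Gins1 and Gins2, of the GINS complex that travels with it, by 0.72 and 0.68. The other GINS subunits were near 0, Gins4 at 0.10 ± 0.14 and Gins3 at -0.07 ± 0.15, and Gins3 was the 1 gene of the list below 0. Geminin (Gmnn), the inhibitor of licensing, was at 0.38 ± 0.25. Each of these genes had an adjusted p of 0.56 or more in limma's model.

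**Figure D3:**
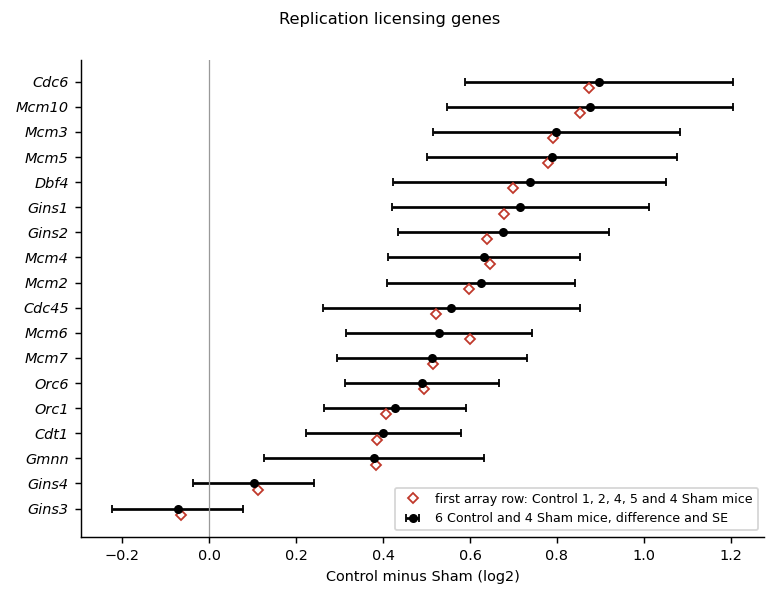
Difference Control minus Sham in log2 (x axis) for the 18 measured replication licensing genes (y axis). Black dots with bars are the difference and SE over 6 Control and 4 Sham mice, and open diamonds the difference in the first array row (4 Control and 4 Sham mice). The dots run from -0.07 for Gins3 to 0.90 for Cdc6, and the diamonds lie within the SE bars.

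DNA synthesis and nucleotide supply showed the same direction in 21 of 21 measured genes, with a median difference of 0.47 and of 0.49 in the first row. Of the 21, 11 were higher at an unadjusted p under 0.05, set against 5.44% of all genes. With the row in the model it was 3, set against 2.31%. Leaving out each mouse gave 2 (Sham 3) to 13 genes, and 7 or fewer without any of Control 2, 3 and 4 or any Sham mouse. Rrm2, the regulated subunit of ribonucleotide reductase, had the largest difference, 1.07 ± 0.44. Uhrf1, which carries DNA methylation through replication, had 1.53, 1.97, 2.11, 2.59, 1.64 and 1.66 in Control, against 1.01, 1.27, 1.04 and 1.21 in Sham, a difference of 0.78 ± 0.28. Fen1, the flap endonuclease of the lagging strand, had 2.23, 2.74, 3.25, 3.10, 2.20 and 2.33 in Control, against 1.88, 2.04, 1.44 and 1.77 in Sham. Neither gene overlapped between groups, with Control 4 highest for Uhrf1 and Control 3 for Fen1. Dut, which keeps uracil out of DNA, differed by 0.57 ± 0.23 without overlap. Pcna, the sliding clamp, was at 0.37 ± 0.22 and Pold1, a polymerase subunit, at 0.18 ± 0.19.

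Of the cyclins, cyclin-dependent kinases and E2F factors, 20 of 20 measured genes lay higher in Control mice, their median being 0.74, and 0.70 in the first row. The unadjusted p was under 0.05 for 14 of 20, set against 5.44% of all genes higher. With the row in the model it was 5, set against 2.31%. Leaving out each mouse gave 3 (Sham 3) to 14 genes, with 7 without Control 4, 8 without Control 3 and 9 without Sham 1. Ccne1, the cyclin of entry into DNA synthesis, had 0.18, 0.90, 1.28, 1.43, 0.37 and 0.51 in Control, against -0.08, -0.06, -0.46 and -0.23 in Sham, a difference of 0.98 ± 0.35. Its lowest value in Control, in mouse 1, was 0.18, above each Sham value. E2f7, a repressor that E2F itself induces, had -1.24, -0.66, -0.15, -0.38, -1.13 and -1.42 in Control, against -1.74, -1.67, -2.17 and -1.70 in Sham. Mybl2, which with FoxM1 drives genes of late cell cycle, had 0.60, 1.01, 1.31, 1.83, 0.54 and 0.89 in Control, against 0.21, 0.28, 0.33 and 0.12 in Sham, a difference of 0.79 ± 0.30. Neither overlapped between groups. Cdk2, the kinase partner of Ccne1, differed by 0.41 ± 0.15 and Cdk4 by 0.27 ± 0.11. The cyclins of growth factor response were nearer 0, Ccnd1 at 0.17 ± 0.18 and Ccnd2 at 0.02 ± 0.23, as was Myc at 0.16 ± 0.22.

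Mitosis and spindle genes were higher in Control for 27 of 27, with a median difference of 0.69 over all arrays and 0.58 in the first row. The unadjusted p was under 0.05 for 13 of 27 over all arrays, set against 5.44% of all genes higher. With the row in the model, which gives the first-row median again, it was 0, set against 2.31%. The second-row Control arrays were higher than the first-row ones for this list, by a median of 0.29. Leaving out each mouse gave 0 to 21 genes at that p, with 0 without Sham 3, 2 without Control 4, 3 without Control 3, 6 without Sham 1, 7 without Control 6 and 21 without Control 1. The level of the list was 0.29, 0.62, 1.13, 1.10, 0.51 and 0.70 in Control 1 to 6, against 0.01, 0.34, -0.61 and 0.27 in Sham 1 to 4. Sham 3 was the lowest mouse, and Control 1 fell between Sham mice. Aurka, a kinase of the spindle pole, had 1.27, 1.83, 2.14, 2.15, 1.57 and 1.87 in Control, against 1.04, 1.25, 0.28 and 0.93 in Sham, a difference of 0.93 ± 0.36. Ube2c, which feeds the anaphase-promoting complex, had 1.86, 2.12, 2.94, 2.97, 2.43 and 2.74 in Control, against 1.46, 1.92, 1.09 and 1.96 in Sham. Aurka did not overlap between groups, although Control 1 at 1.27 was just above Sham 2 at 1.25, and for Ube2c Control 1 was below Sham 2 and Sham 4. Mad2l1, of the spindle checkpoint, and Ect2, of cytokinesis, differed by 0.82 ± 0.34 and 0.68 ± 0.28 without overlap. Mki67, the usual histological marker of cycling cells, was at 0.61 ± 0.29.

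Tests across mice cannot tell which cell type carried these transcripts, and the levels of cell type lists in the same mice are therefore given. Control 4, highest for licensing and cyclins, was also the highest Control mouse for the B cell list, at 1.79, and Control 3 was at -0.58. Sham 2 and Sham 4, at 1.61 and 0.84 for B cells, were at 0.11 and 0.03 for licensing. Intestinal stem cell and Wnt target genes were split: 8 of 19 were higher in Control, with a median of -0.07, and Lgr5, the stem cell receptor, was at -0.10 ± 0.19 and Axin2, the feedback target of Wnt, at 0.08 ± 0.22. The 1 Wnt target at an unadjusted p under 0.05 was Sp5, at 1.87 ± 0.63.

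Brakes of the cell cycle and targets of the tumour suppressor p53 were split, with 8 of 16 higher and a median of -0.01, and 3 of 16 were lower at an unadjusted p under 0.05, set against 3.47% of all genes. Cdkn2b, an inhibitor of Cdk4 induced by TGF-beta, had 2.86, 2.77, 2.93, 2.48, 3.02 and 3.05 in Control, against 3.19, 3.29, 3.74 and 3.40 in Sham, a difference of -0.55 ± 0.20. Bbc3 (PUMA), which triggers apoptosis, had 0.56, 0.43, 0.38, 0.26, 0.96 and 0.44 in Control, against 0.58, 0.75, 2.01 and 1.61 in Sham. Cdkn2b did not overlap between groups, and for Bbc3 Control 5 was above Sham 1 and Sham 2, with Sham 3 and 4 highest. Gadd45a, a stress gene, differed by -0.35 ± 0.12. Pmaip1 (Noxa), a further trigger of apoptosis, was among the 10 lowest named genes of the comparison. It had 1.29, 1.04, 1.46, 1.64, 1.28 and 1.43 in Control, against 1.65, 1.93, 2.81 and 2.42 in Sham, a difference of -0.85 ± 0.25. Its groups touched without overlap, Control 4 at 1.64 and Sham 1 at 1.65. Cdkn1a (p21) and Mdm2, the usual readouts of p53, were at 0.13 ± 0.18 and 0.14 ± 0.08.

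Genes at the top and bottom of the whole comparison were named by rule. The rule took protein-coding genes at an unadjusted p under 0.05 whose groups did not overlap, which left 346 higher and 100 lower candidates. It also asked for the same sign in the first row and on both slides, which groups without overlap always meet. Because it used these differences, the values that follow are a description. Limma's adjusted p was 0.56 for each, apart from Ppbp at 0.296.

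Sprr2h, of the small proline-rich proteins that form the cornified envelope of squamous epithelium, headed the list. Its values were -5.67, -3.33, 0.12, 1.32, -5.30 and -3.08 in Control, against -7.14, -6.91, -6.45 and -6.29 in Sham. It passed the background test on 5 Control arrays and 0 Sham arrays, so its Sham values only bound its level. The difference was 4.04 ± 1.10, 3.45 in the first row, and 1.96 with the normexp background correction. Control 3 and 4, the mice highest for the cell cycle, were also highest here. Sprr2 genes are near-identical copies, and whether the probe (chr3:92191160-92191219, mm9) takes up other members was not tested. Sprr1a, a relative, had 0.28, 1.05, 3.46, 2.64, 0.74 and 0.99 in Control, against 0.36, -0.32, -1.46 and -0.30 in Sham, a difference of 1.95 ± 0.71, again with Control 3 and 4 highest. The squamous list was split: 4 of 9 measured genes were higher, with a median of -0.07, and the squamous keratins Krt5 and Krt14 were at -0.07 ± 0.51 and -0.13 ± 0.21.

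Saa3, a serum amyloid A made by inflamed epithelium and macrophages, had -0.41, -1.40, -1.68, -0.17, -2.65 and 0.52 in Control, against -2.84, -3.90, -3.65 and -4.56 in Sham, a difference of 2.77 ± 0.70. Each Control mouse was above each Sham mouse, with Control 6 highest and Control 5 close to Sham 1. Ppbp, the platelet chemokine that matures into the neutrophil attractant CXCL7, had -2.67, -5.03, -3.95, -4.03, -3.82 and -4.59 in Control, against -5.87, -6.47, -6.90 and -6.38 in Sham. It passed the background test on 5 Control and 0 Sham arrays and differed by 2.39 ± 0.38, by 2.52 in the first row, and by 0.68 with the normexp background correction. Control 1 was highest for Ppbp, a mouse that was low for Sprr2h.

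**Figure D4:**
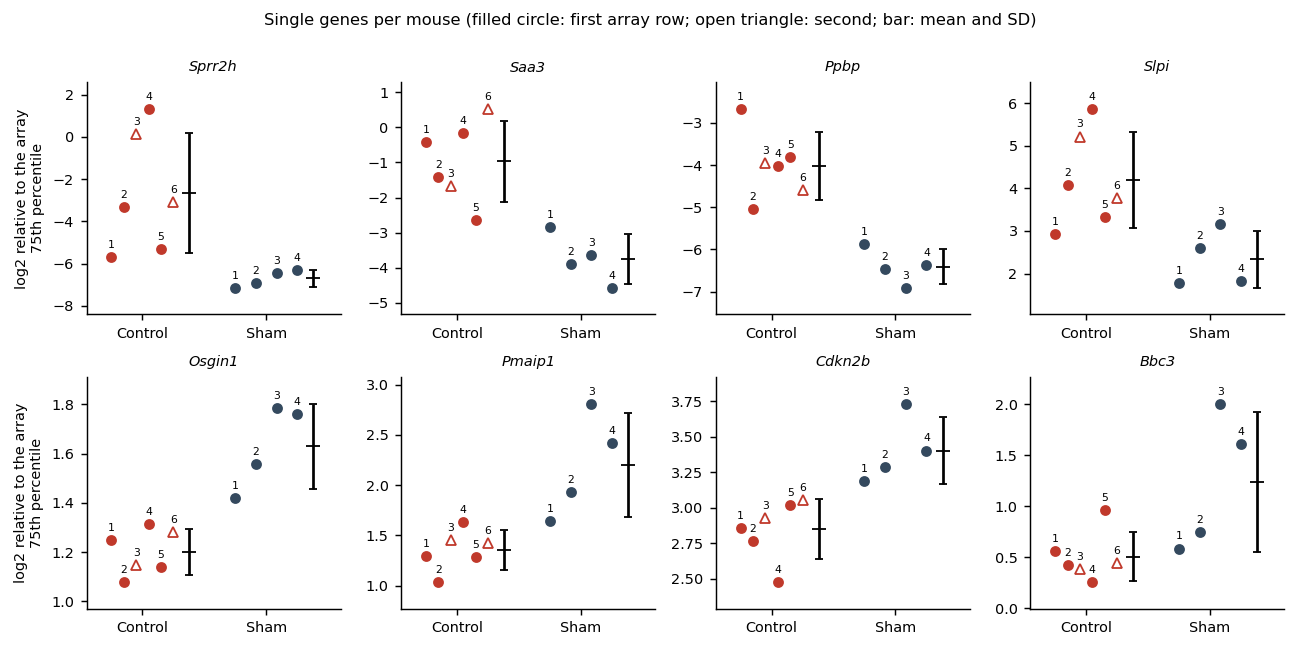
Level of 8 genes in each mouse (y axis, log2 relative to the 75th percentile of the array), with Control left of Sham, numbers for mice, filled circles for the first array row, open triangles for the second, and bars for mean and SD. Sprr2h, Saa3 and Ppbp are higher in each Control than in each Sham mouse, Osgin1, Pmaip1 and Cdkn2b are lower in each, and Slpi and Bbc3 overlap.

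The other genes at the top were Gml, Fer1l4, Trim10, Ifng, Ak4, Lrr1 and Vmn1r65. Gml and Trim10 were well above background on 0 Sham arrays and differed by 2.95 ± 0.80 and 1.80 ± 0.47, and by 1.11 and 0.48 with the normexp background correction. Ifng, the interferon of activated T and natural killer cells, had -5.70, -3.63, -4.49, -2.14, -5.70 and -5.23 in Control, against -6.62, -5.82, -6.05 and -6.57 in Sham, with Control 4 highest and a difference of 0.63 with normexp, against 1.78 without it. Of its arrays, 4 in Control and 1 in Sham were well above background. Ak4, a mitochondrial adenylate kinase, had 1.64, 2.81, 3.25, 2.79, 2.03 and 2.07 in Control, against 1.28, 0.85, 1.12 and 1.12 in Sham. Fer1l4, a ferlin family gene, differed by 2.07 ± 0.52, Lrr1, a factor that unloads the helicase from finished DNA, by 1.19 ± 0.45, and Vmn1r65, a pheromone receptor gene, by 1.18 ± 0.27 (0.49 with normexp). Of 27 measured interferon-stimulated genes 3 were higher in Control, with a median of -0.30, and of -0.09 without Sham 1. At an unadjusted p under 0.05, 1 of the 27 was lower, near the 3.47% of all genes, which was Ifih1, an RNA sensor, at -0.34 ± 0.10. With the row in the model 3 of the 27 were lower at that p, set against 1.61% of all genes. In the first row 26 of the 27 were lower, with a median of -0.34.

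The 10 lowest were Orm2, Sucnr1, Galnt17, Csta2, Fank1, D6Ertd527e, Cfap53, Cyp27a1, Vstm5 and Pmaip1, with differences from -1.55 to -0.85. Orm2, an acute phase orosomucoid, had -5.77, -5.16, -6.57, -5.12, -6.31 and -6.44 in Control, against -4.50, -4.33, -3.66 and -4.88 in Sham, and 2 of 6 Control arrays and all Sham arrays were well above background. Sucnr1, the succinate receptor, had -5.17, -5.08, -6.69, -7.94, -5.24 and -5.12 in Control, against -4.89, -4.14, -4.37 and -4.32 in Sham, with Control 4 lowest. Cyp27a1, which oxidises cholesterol towards bile acids, differed by -0.91 ± 0.39, and its highest Sham value was -1.11 in Sham 3. For Sucnr1, 3 of 6 Control arrays were well above background. With normexp the differences of Orm2 and Sucnr1 were -0.47 and -0.34, against -1.55 and -1.45 without it.

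Antimicrobial and acute phase genes were higher for 15 of 22 measured, with a median difference of 0.43 and of 0.24 in the first row. Of them, 4 were higher and 1 lower at an unadjusted p under 0.05, set against 5.44% and 3.47% of all genes. The median was 0.28 without Control 6, 0.22 without Sham 4, 0.66 without Sham 3 and 0.15 without both Control 4 and 6. Slpi, a secreted inhibitor of neutrophil elastase, had 2.93, 4.07, 5.22, 5.87, 3.32 and 3.79 in Control, against 1.77, 2.60, 3.16 and 1.82 in Sham, a difference of 1.86 ± 0.59. Control 3 and 4 were highest, and Control 1 was below Sham 3. Pla2g2a, a phospholipase that kills Gram-positive bacteria, had -0.83, 0.19, -0.18, 1.95, -0.56 and 1.47 in Control, against -1.88, -1.22, -0.41 and -1.59 in Sham. Control 4 and 6 were highest for it, and Control 1 and 5 were below Sham 3. Duoxa2, which matures the epithelial oxidase Duox2, differed by 0.82 ± 0.34. The gene lower at that p was Lypd8, which keeps flagellated bacteria off the epithelium, at -0.28 ± 0.12. Reg3b, a secreted antibacterial lectin, had the largest difference of the list with a wide error, 4.28 ± 2.09.

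Neutrophil genes were split: 9 of 20 were higher, with a median of -0.01 and of -0.04 in the first row. At an unadjusted p under 0.05, 2 were higher, set against 5.44% of all genes. Fpr1, a receptor for bacterial peptides, had -3.86, -2.81, -3.13, -1.52, -3.33 and -3.11 in Control, against -4.18, -4.12, -3.54 and -4.15 in Sham, and Cd177, a neutrophil surface protein, differed by 0.97 ± 0.38. The calprotectin subunits S100a8 and S100a9 were at 1.74 ± 1.07 and 1.27 ± 1.02, and Mpo at -0.28 ± 0.32. The list level was -0.67, 0.01, 0.37, 1.33, -0.39 and 0.83 in Control 1 to 6, against -0.64, 0.53, 0.30 and -0.20 in Sham 1 to 4. Control 4 and 6 were highest and the groups overlapped. Of 20 listed cytokines that recruit neutrophils, 9 were too dim. Of the 11 measured, 10 were higher, with a median of 0.81 and of 0.59 in the first row. At that p 2 of the 11 were higher, set against 5.44% of all genes. These were Ppbp and Csf2, the growth factor GM-CSF. Ppbp passed the background test on no Sham array, and the filter can keep genes that pass it mainly in Control. Csf2 had -6.50, -6.60, -6.67, -5.59, -6.97 and -5.72 in Control, against -7.14, -7.34, -6.96 and -7.15 in Sham, and 5 Control arrays and 1 Sham array passed the background test. Its difference was 0.81 ± 0.26, and 0.11 with normexp. The cytokine median was 0.50 without Control 4, 0.51 without Sham 1 and 0.09 without both Control 4 and 6. Il1b and Tnf were at 0.97 ± 0.67 and 0.19 ± 0.62.

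Ppbp was accompanied by few other platelet genes. Of 16 platelet and megakaryocyte genes 8 were higher, with a median of 0.04. At an unadjusted p under 0.05, 3 were higher, set against 5.44% of all genes. Besides Ppbp these were Treml1, a receptor of platelet granules, at 0.47 ± 0.20, and P2rx1, an ATP-gated channel, at 0.52 ± 0.23. Pf4, the other abundant platelet chemokine, was at -0.08 ± 0.22. Erythroid genes were higher for 8 of 10, with a median of 0.79, of 1.21 in the first row, and of 0.41 without Control 1. At that p 1 of 10 was higher, and 6 with the row in the model, set against 5.44% and 2.31% of all genes. The erythroid level was 2.37, 0.37, 0.08, 0.03, 1.21 and -0.17 in Control 1 to 6, against 0.72, -0.05, -0.50 and -0.17 in Sham 1 to 4. Control 1 and 5 were highest, and the same Control 1 was highest for Ppbp. Slc4a1, the anion exchanger of the red cell, had 0.16, -2.09, -2.45, -2.49, -2.46 and -3.66 in Control, against -2.39, -4.04, -4.08 and -3.98 in Sham. The part of blood left in the tissue in the Ppbp difference was not tested.

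Signalling genes of inflammation pointed both ways. Of the NF-kB and prostaglandin list 10 of 22 were higher, with a median of -0.04 and of -0.03 in the first row. At an unadjusted p under 0.05, 1 was higher, near the 5.44% of all genes, and 3 lower, set against 3.47%. With the row in the model it was 0 and 2, set against 2.31% and 1.61%. Socs3, the feedback inhibitor of IL-6 family signalling, had 1.44, 2.21, 2.65, 3.92, 1.16 and 2.78 in Control, against 1.08, 1.17, 1.37 and 1.27 in Sham. Relb, a subunit of NF-kB, had 2.38, 2.17, 2.15, 2.36, 2.55 and 2.54 in Control, against 2.47, 2.69, 3.10 and 3.08 in Sham, and 2 of its 3 probes had the same sign. Control 4 was highest for Socs3, while Sham 3 and 4 were highest for Relb. Tnfaip3 (A20), an inhibitor of NF-kB, differed by -0.39 ± 0.14 and Hpgd, which inactivates prostaglandins, by -0.40 ± 0.18. Of the protease list, Timp1, an inhibitor of metalloproteinases, differed by 0.58 ± 0.19, Mmp14 by 0.32 ± 0.14 and Plau by 0.34 ± 0.15, and 12 of 18 were higher with a median of 0.17, and of 0.10 in the first row. These 3 were the members at that p, set against 5.44% of all genes. With the row in the model 1 of 18 kept it, set against 2.31%.

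Osgin1, an oxidative stress response gene, had a small spread and the lowest unadjusted p among listed genes after Ppbp. It had 1.25, 1.08, 1.15, 1.31, 1.14 and 1.28 in Control, against 1.42, 1.56, 1.79 and 1.76 in Sham, a difference of -0.43 ± 0.08 (limma adjusted p = 0.56). Each Control mouse was below each Sham mouse, and the first row gave -0.44. Of the list that holds it, targets of NRF2 and of the aryl hydrocarbon receptor, 13 of 17 were higher with a median of 0.16. At an unadjusted p under 0.05, 3 were higher and 1, Osgin1, lower, set against 5.44% and 3.47% of all genes. Gsta4 and Gsta2, glutathione transferases, differed by 0.74 ± 0.22 and 1.43 ± 0.55, and Hmox1, heme oxygenase, by 0.44 ± 0.17. Gsta2 had 2.10, 3.37, 3.88, 3.93, 1.69 and 1.48 in Control, against 2.09, 1.41, 0.76 and 0.97 in Sham, with Control 3 and 4 highest and Control 5 and 6 inside the range of Sham.

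Among metabolic lists, fatty acid oxidation and PPAR targets had a median of 0.05 with 13 of 21 higher, and drug and steroid metabolism 0.03 with 11 of 19 higher. Glycolysis and hypoxia genes were higher for 21 of 22, with a median of 0.27 and of 0.20 in the first row. At an unadjusted p under 0.05, 6 were higher, set against 5.44% of all genes. The count was 4 with the row in the model, set against 2.31%, and 3 without Sham 4. Car9, a carbonic anhydrase induced by hypoxia, had 3.62, 3.94, 4.39, 3.99, 3.69 and 3.50 in Control, against 3.42, 3.15, 3.29 and 3.28 in Sham, without overlap. Tpi1, Pfkl and Pdk1, enzymes of glycolysis and the brake on pyruvate oxidation, differed by 0.34, 0.37 and 0.70. The level of the list was 0.12, 0.21, 0.75, 0.61, 0.09 and 0.15 in Control 1 to 6, against 0.14, -0.09, 0.13 and -0.19 in Sham 1 to 4, so Control 3 and 4 stood above the rest. Nuclear genes of oxidative phosphorylation were higher for 21 of 23 with a median of 0.12, and 3 were higher at that p (Ndufs1, Cyc1 and Ndufa9, by 0.17 to 0.21), set against 5.44% of all genes. With the row in the model 0 kept it, and leaving out each mouse gave 0 to 3.

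Ribosome biogenesis genes were higher for 21 of 24, with a median of 0.25 and of 0.20 in the first row. At an unadjusted p under 0.05, 6 were higher, set against 5.44% of all genes. The count was 1 with the row in the model, set against 2.31%, and 0 without Control 4 and 6. Fbl, the methyltransferase of ribosomal RNA, had 2.54, 2.62, 2.61, 2.73, 2.48 and 2.52 in Control, against 2.10, 2.42, 2.12 and 2.19 in Sham, without overlap. Nolc1, Srm and Rrs1 differed by 0.55, 0.56 and 0.45. Genes of the endoplasmic reticulum stress response were higher for 21 of 25, with a median of 0.17 and of 0.15 in the first row. Of these, 4 were higher and 1 lower at that p, set against 5.44% and 3.47% of all genes. With the row in the model it was 1 and 1, and 5 did not overlap between groups, set against 2.64% of all genes. Manf, a secreted folding factor, had 3.31, 3.36, 3.28, 3.38, 3.50 and 3.62 in Control, against 3.02, 2.96, 2.82 and 2.89 in Sham. Hyou1, a chaperone, and Asns, asparagine synthetase, differed by 0.61 ± 0.25 and 0.60 ± 0.21, while Ddit3 (CHOP), the factor of the death arm of the same response, differed by -0.46 ± 0.16.

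Cholesterol synthesis differed with the row. Over all arrays 19 of 21 genes were higher, with a median of 0.24. At an unadjusted p under 0.05 it was 4, set against 5.44% of all genes. In the first row 12 of 21 were higher with a median of 0.10, and 0 kept that p with the row in the model. The level was -0.32, -0.05, 0.80, 0.75, 0.07 and 0.38 in Control 1 to 6, against -0.12, -0.08, 0.10 and 0.11 in Sham 1 to 4. Control 3, in the second row, and Control 4, in the first, were highest. Fdps, of the isoprenoid branch, had 4.58, 4.69, 5.37, 5.34, 4.68 and 5.07 in Control, against 4.52, 4.41, 4.48 and 4.55 in Sham, without overlap. Clock genes were lower for 15 of 19, with a median of -0.35 and of -0.40 in the first row, and 3 were lower at that p: Cry2 by -0.54 ± 0.22, Usp2 by -0.57 ± 0.24 and Per3 by -0.68 ± 0.32, set against 3.47% of all genes. The count was 0 with the row in the model, without Sham 3 and without Control 6. The labels used here do not give the time of day of sampling.

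Markers of the bowel wall and of lymphoid tissue spread widely among mice of each group. Smooth muscle genes were lower for 19 of 20, with a median of -0.32, of -0.15 in the first row, and 0 at an unadjusted p under 0.05. The level was 0.63, -0.01, -0.22, -1.07, -0.13 and -1.09 in Control 1 to 6, against 0.75, -0.27, -0.52 and 0.04 in Sham 1 to 4. The median ran from -0.18 to -0.11 without Control 4, Control 6 or Sham 1 singly. With both Control 4 and 6 left out it was 0.04, and that of enteric neurons and glia, -0.34 over all mice, was 0.09. B cell genes were lower for 22 of 22, with a median of -1.05 and of -1.16 in the first row, and 0 were lower at that p. Their level was -2.84, -1.31, -0.58, 1.79, -1.89 and -0.94 in Control 1 to 6, against -3.12, 1.61, 0.67 and 0.84 in Sham 1 to 4. Sham 1 was the lowest mouse of all, and without it 18 of 22 genes were lower at that p with a median of -2.03. The median was -0.43 without Sham 2, -0.55 without Control 1, -0.67 without Sham 4 and -1.55 without Control 4, where 8 genes were lower at that p.

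**Figure D5:**
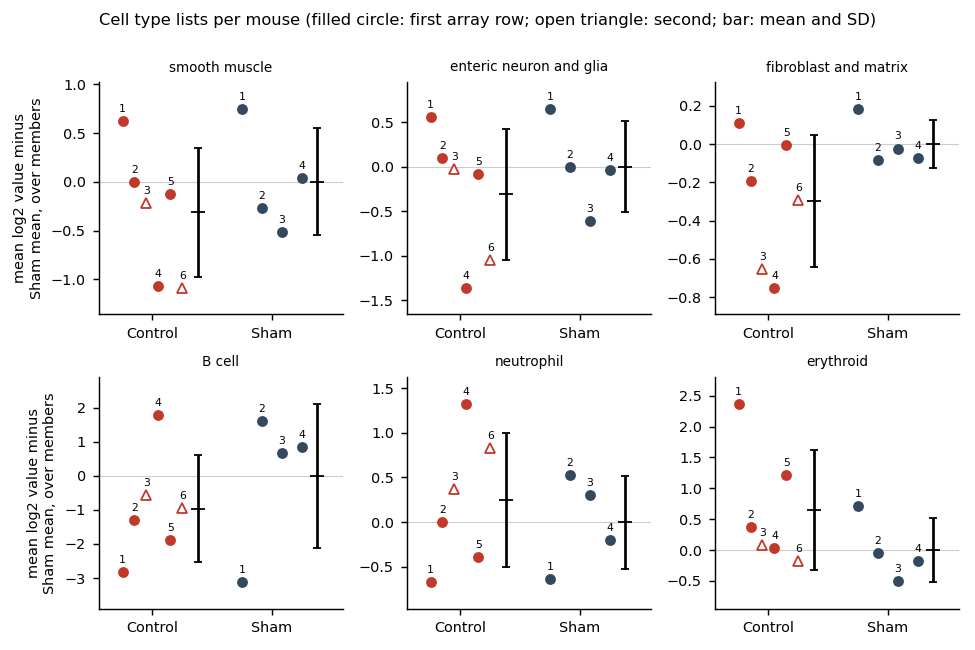
Mean level of 6 cell type lists in each mouse (y axis, log2 minus the Sham mean, averaged over list members), with Control left of Sham, numbers for mice, filled circles for the first array row, open triangles for the second, and bars for mean and SD. Control 4 and 6 are lowest for smooth muscle at -1.07 and -1.09, Sham 1 is lowest for B cells at -3.12, and Control 1 is highest for erythroid genes at 2.37.

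Fibroblast and matrix genes were lower for 26 of 28, with a median of -0.27 and of -0.17 in the first row, and 6 were lower at an unadjusted p under 0.05, set against 3.47% of all genes. The count was 3 with the row in the model, 3 without Control 3 or Sham 1, 4 without Control 4 and 13 without Control 1. Pi16, of adventitial fibroblasts, had 0.73, 0.24, -0.79, -0.62, 0.50 and -0.62 in Control, against 0.27, 1.30, 1.23 and 0.67 in Sham, a difference of -0.96 ± 0.30. Thy1, shared by fibroblasts and T cells, had 2.11, 1.81, 1.52, 2.14, 1.93 and 1.77 in Control, against 2.38, 2.29, 2.52 and 2.24 in Sham, without overlap. Mfap5 differed by -0.65 ± 0.26, and the collagens Col1a1 and Col3a1 were at -0.42 ± 0.23 and -0.38 ± 0.25. The part of the amount of bowel wall in each piece, low in Control 4 and 6, was not tested. The lists of absorptive colonocytes and goblet cells had medians of 0.09 and 0.10 with 15 of 22 and 15 of 20 higher. In the first row these were 0.12 with 13 higher and 0.02 with 11 higher, and leaving out each mouse gave 0.03 to 0.22 and 0.03 to 0.15. Slc9a3, the sodium exchanger of the brush border, differed by 0.68 ± 0.30 and Slc51b, a bile acid transporter, by 0.89 ± 0.38. They were among 3 of 22 colonocyte genes higher at an unadjusted p under 0.05, set against 5.44% of all genes. With the row in the model 0 of the 22 were, set against 2.31%. Macrophage and dendritic genes had a median of 0.01.

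The labels give a diarrhea score at day 28 for each mouse. It was 0.5, 0.5, 1.5, 1, 0.5 and 1 in Control 1 to 6, against 0, 0.5, 0.5 and 0.5 in Sham 1 to 4, with means of 0.833 ± 0.408 (SD, n = 6) and 0.375 ± 0.25 (SD, n = 4). The difference of 0.458 had p = 0.124 in an exact two-sided permutation test over 210 arrangements. Many scores were tied, and the Sham mice already held the lowest set of scores that any arrangement could give them. The test could therefore not give a smaller p for Control above Sham, and no conclusion is drawn from it. Control 3, 4 and 6 had scores above each Sham mouse. Of these Control 3 and 4 were the highest for licensing, Slpi and Sprr2h, and Control 6 was highest for Saa3. A relation over 6 mice was not tested.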

How the data were processed

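RNA of each mouse was labelled with Cy3 and hybridised to a 1-colour Agilent array, per the labels. The scanner files hold intensity that the authors' Agilent Feature Extraction had background-subtracted and detrended, per the file headers, and that was not normalised between arrays. The mean spot intensity and the median around the spot, also deposited, are uncorrected, and the flags are 0 or 1. The authors' deposited value table, which names no unit, holds values that matched log2 intensity shifted per array and centred per probe on Sham when compared with the scanner files, with r from 0.985 to 0.999 per array. Its column medians run from -0.19 to 0.22, and the source of its per-array shift is not stated.

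Processed intensities were put on the log2 scale and the 75th percentile of each array was subtracted, over 59305 non-control spots and 55681 probes, without outlying spots. Probes were kept if at least 4 of 16 arrays were well above background and they lay outside the outer 12 of 384 spot rows at each end (32852 probes), 1 per gene with the highest mean, which left 23381 genes. Of all probes, 27656 were named through RefSeq. The test was limma (version 3.58.1, R 4.3.3) in 1 model of 3 groups, which includes 6 arrays of a 5-ASA group for the spread. The calling was tested on simulated data. Probe positions are those of mm9.

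Named genes were the 10 highest and 10 lowest by the rule in the text and up to 4 members per list with the smallest unadjusted p, where that was under 0.05. The lists and the members were chosen with earlier results of these data known. The alternatives were array row, slide, scaling, background, filters, probe choice, the deposited table and leaving out mice.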

Additional observations from a re-analysis of the deposited data

Results flagged for a closer look

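In the 6 Control mice and in the 4 Sham mice, Dixon's test was applied to the highest or lowest mouse. It sets the gap between that mouse and its neighbour against the range of the group. Of 328 such sets of values, 21 had a mouse that stood apart, and chance gives about 5%, so the share was close to that of chance. No cause was tested.

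Sham 1 stood apart in 9 of them. Its diarrhea score was 0, against 0.5 in the other Sham mice. It was low for the lists of MHC class II (-1.03), T and NK cells (-1.005), neutrophil-recruiting cytokines (-0.63) and ribosome biogenesis (-0.22), and high for those of heat shock (0.23) and stratified squamous epithelium (0.47), in log2 minus the Sham mean. It was high for Dsc2 (2.60), a desmosomal cadherin, and for Slc4a1 (-2.39, against -3.98 in the nearest Sham mouse).

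Sham 3 was low for E2f7 (-2.17), Cldn5 (0.020), an endothelial tight junction gene, and the stem cell and Wnt list (-0.058), and high for Fpr1 (-3.54) and the immediate early list (0.44). Sham 2 was low for Lyve1 (0.72), of lymphatic vessels, and Ndufs1 (4.72), and Sham 4 for Srm (1.12). Among Control mice, Control 3 was high for P2rx1 (-0.69). Control 4 was low for the tuft cell list (-0.97) and the fatty acid oxidation list (-0.28), and Control 6 was high for the mast cell and eosinophil list (1.37).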

How the results depend on the processing

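No named gene changed sign in any alternative, but leaving out mice cannot change it where the groups do not overlap. Sizes did change, as for Cry2, from -1.07 to -0.01. List medians were counted once per alternative. Of these, 9 moved by more than the SD of the list level over the 6 Control mice, and 1335 did not. That SD was 1.56 for B cells, whose median ran from -2.03 to -0.43 with each mouse left out and did not count as moved. Counts at an unadjusted p under 0.05 moved most with the row as a covariate, to 539 higher and 377 lower, and on slide 1 alone, to 440 and 296, where 1 gene was called lower (Slc6a13, at -1.86, limma adjusted p = 0.0398). The first row alone gave 493 lower, and median scaling 726 higher. With the outer spot rows kept, 1 gene was called higher, which was Ppbp (limma adjusted p = 0.0263), and 13 lower. Those rows are left out of the main test, and an adjusted p depends on the ranks of all genes tested. Leaving out each mouse gave 702 to 1611 higher and 478 to 1304 lower (both lowest without Sham 3, and 771 and 529 without Control 3), with 0 called higher and 0 to 1 called lower (1 without Sham 2). The highest count of lower genes came without Sham 1. Of the alternatives added after seeing the data, leaving out Control 1 and Sham 1 gave 1289 lower, and the row as a covariate without the 5-ASA arrays gave 441 lower. The replicate block gave 1445 higher and 804 lower with 0 called. Deviations of same-numbered Control and Sham mice correlated at 0.64, 0.01, -0.24 and 0.24, and 2 of 4 Sham mice correlated best with the Control mouse of its number, so the numbers were not taken as pairs. The cause of these shifts was not tested.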
